A study of Saccharomyces cerevisiae with 8 samples.

Results

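This report describes 5 peaks from immunoprecipitation of the yeast transcription factor Gcr1 that lie away from glycolytic promoters. They are called sites below, and binding of Gcr1 itself was not tested there. They were chosen by position, as peaks present in all 4 deposited lists with a centre inside EFM4, RAD34 or ATS1, or from 1000 bp upstream to 200 bp downstream of the start codon of FIS1, CIS1, CCR4, FUN30 or FIG1. These 8 genes resolved to 5 peaks out of 162 found in all 4 lists, because the EFM4 peak is also upstream of FIS1, and the ATS1 peak is also upstream of both CCR4 and FUN30. The genes had been picked because tags there were high, so the tag counts at these sites are given as a description and no test was made on them. The comparators were the 8 glycolytic promoters with a peak in all 4 lists, namely CDC19, ENO2, FBA1, GPM1, PFK2, PGI1, PGK1 and TDH3.

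The data come from chromatin immunoprecipitation sequencing of 8 haploid BY4741 yeast samples, 2 for each of 4 groups. Every sample carried Gcr1 with a tandem affinity purification (TAP) tag and Gcr2, its partner protein, with a Flag tag (GCR2-5Flag::hphMX6). In 1 strain the tagged form was Gcr1(U), made from the unspliced GCR1 transcript (allele GCR1U-TAP::his3MX6), and in the other it was Gcr1(S), made from the spliced transcript (allele GCR1S-TAP::his3MX6). Each form was sampled at 6 h, labelled as exponential growth, and at 12 h, labelled as diauxic shift, in rich medium that began with 2% glucose at 30 °C. Chromatin was bound to IgG beads. Each form was studied in a single strain, and the sources used here do not give how many clones that represents. Neither an input nor an untagged strain was analysed here, so tags that would be recovered without tagged Gcr1 were not measured at any site.

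Gcr1 is the activator of most glycolytic genes in budding yeast. It works with Gcr2 and with the general factor Rap1, and the glycolytic promoters are its classical targets. None of the 8 genes considered here encodes a glycolytic enzyme. EFM4 encodes a methyltransferase of translation elongation factor 1A, and FIS1 an outer membrane protein needed for mitochondrial and peroxisomal fission. RAD34 encodes a relative of the DNA repair protein Rad4. ATS1, also called KTI13, acts in diphthamide synthesis and in modification of the tRNA wobble base. CCR4 encodes a catalytic deadenylase of the Ccr4-Not complex, which shortens mRNA tails, and FUN30 a Snf2-family chromatin remodeller. FIG1 encodes a membrane protein of mating cells, and CIS1 is a short gene named for sensitivity to the toxin citrinin.

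The deposited values are 1 pooled peak list per form and time, with no value per replicate. No value below therefore has a replicate error. Ranges in brackets are 95% intervals for counting error only. The lists are called U6, U12, S6 and S12 below, after the form and the hour. U6 and U12 each held 299 peaks, S6 and S12 each 233. The normalized tag count counts the tags in a peak window after scaling for library size. Windows were 182 bp wide in U6, 168 bp in U12, 170 bp in S6 and 114 bp in S12. S12 was the shallowest, with 0.582 derived tags behind each normalized unit, against at least 1.07 in the other lists.

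The 5 sites fell into 2 kinds by position. The first kind lay inside coding sequence. In the sacCer3 build the EFM4 peak of U6 spanned chromosome IX 242110 to 242292, and its centre was 174 bp inside EFM4 (IX 242027 to 242716, plus strand) in all 4 lists. The same centre was 426 bp upstream of FIS1, which is transcribed in the opposite direction. The RAD34 peak spanned IV 1092090 to 1092272 in that list, with its centre between 315 and 330 bp inside RAD34 (IV 1090433 to 1092511, minus strand). RAD34 therefore has no peak in its own promoter range, and its upstream neighbour IPK1 is transcribed in the same direction. The ATS1 peak spanned I 113926 to 114108, with its centre 585 to 617 bp inside ATS1 (I 113614 to 114615, minus strand). From there it was 639 to 671 bp to the start of CCR4 and 889 to 921 bp to that of FUN30.

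The second kind lay between genes. The CIS1 peak spanned XII 823375 to 823557, with its centre 873 or 874 bp upstream of CIS1 (XII 822287 to 822592, minus strand). Its other neighbour, KAP95, ends 362 bp away and encodes a nuclear import receptor. The FIG1 peak spanned II 316834 to 317016, with its centre 41 to 56 bp upstream of FIG1 (II 316968 to 317864, plus strand), so the window crossed the start codon. The limit of the position rule was 1000 bp upstream, so FUN30 and CIS1 were the genes nearest to it. The tRNA gene closest to any of the centres was 3189 bp away, at the RAD34 site.

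**Figure D1:**
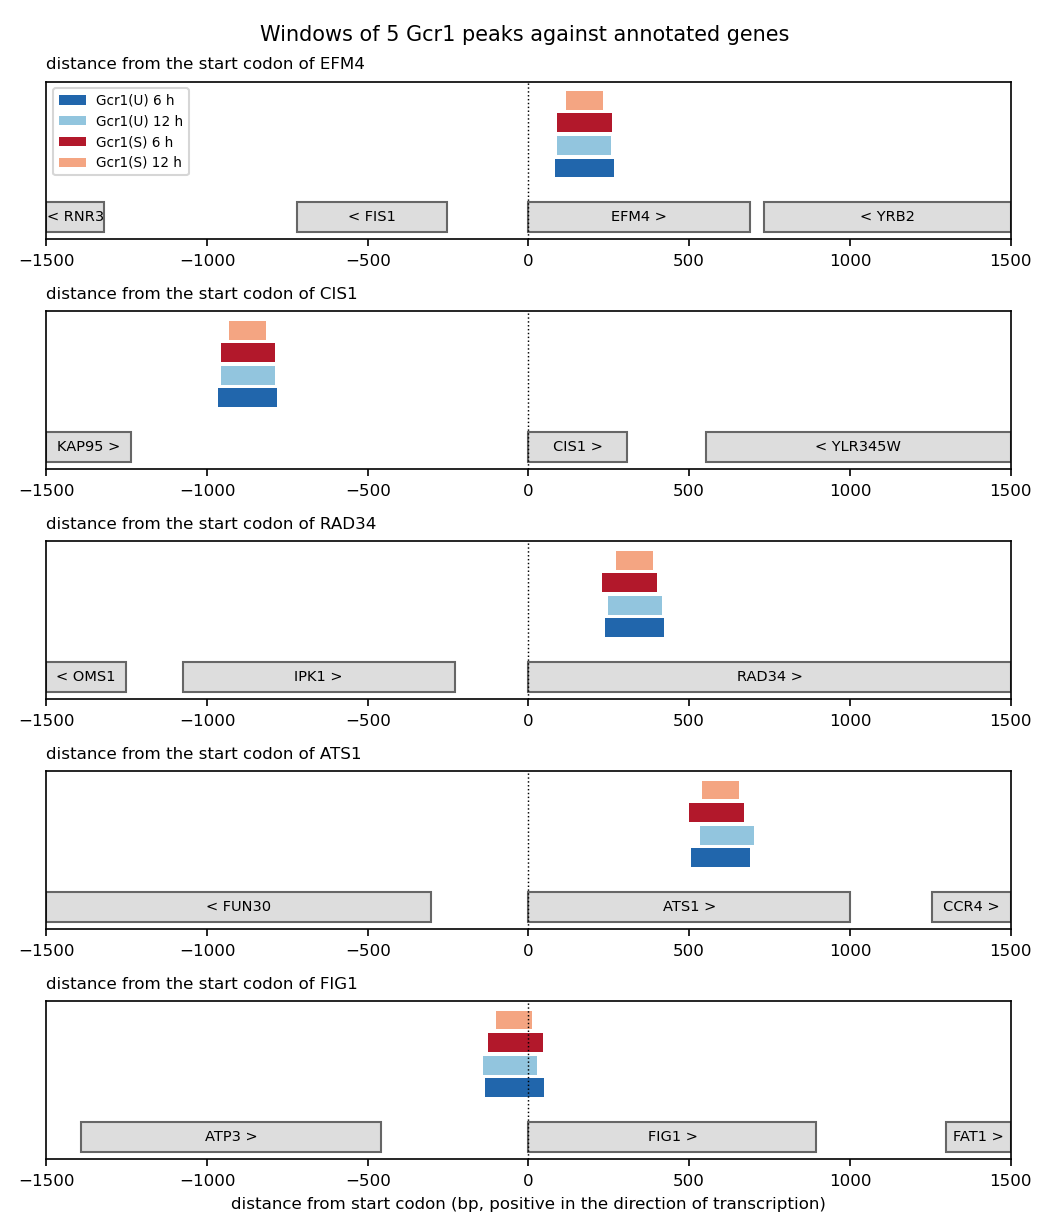
Each panel plots the windows of 1 peak in the 4 lists (coloured bars, listed by form and time) against annotated genes (grey boxes, with arrowheads for the direction of transcription), by distance in bp from a start codon (dotted line). The EFM4, RAD34 and ATS1 windows lie inside genes in every list, the CIS1 window lies between CIS1 and KAP95, and the FIG1 window spans the FIG1 start codon.

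The places were nearly the same in the 4 lists. The EFM4 centre did not move by 1 bp, the CIS1 centre moved by 1 bp, the RAD34 and FIG1 centres by 15 bp and the ATS1 centre by 32 bp. Over the 162 peaks in all 4 lists the median range of the centre was 33 bp and the largest 131 bp. The glycolytic centres ranged over 8 bp (PGI1 and ENO2) to 38 bp (TDH3). At each of the 5 sites the narrow S12 window lay inside the other 3.

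EFM4 was the highest peak of every list. Its normalized tag count was 6109.5 in U6 (5985 to 6236), 4158 in U12 (4052 to 4265), 8687 in S6 (8512 to 8866) and 15419 in S12 (15102 to 15742). It exceeded the next peak 1.36 times in U6, where that peak was ADH1, an alcohol dehydrogenase gene of fermentation, 2.37 times in U12, 3.76 times in S6 and 3.99 times in S12. The single EFM4 window held 5.65% of all listed tags in U6, 4.38% in U12, 7.37% in S6 and 13.3% in S12.

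CIS1 and RAD34 followed in each list, with only ADH1, PFK2 and 1 mitochondrial peak among them. CIS1 had 2051 tags in U6 (rank 3), 1755 in U12 (rank 2), 2203 in S6 (rank 3) and 3460.1 in S12 (rank 3). RAD34 had 1801 tags in U6 (rank 6), 1461 in U12 (rank 4), 2312 in S6 (rank 2) and 3859.6 in S12 (rank 2). In U6 PFK2 and RAD34 stood at 1854 and 1801 tags, and the counting interval of RAD34 (1733 to 1869) included the PFK2 value. In the other 3 lists CIS1 and RAD34 were both above all 8 glycolytic promoters, the highest of which was CDC19 with 1517 tags in S6 and 1233 in U12, and PGI1 with 2313 in S12.

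ATS1 and FIG1 did not match the description of strongest peaks in all lists. ATS1 had 692 tags in U6 (rank 24), 502 in U12 (rank 29), 1137 in S6 (rank 9) and 1788 in S12 (rank 9). FIG1 had 498 tags in U6 (rank 38), 328 in U12 (rank 137, with a list median of 288), 547 in S6 (rank 42) and 1107 in S12 (rank 15). ATS1 was thus among the 10 highest peaks in the Gcr1(S) lists only, and FIG1 in none. FIG1 lay below all 8 glycolytic promoters in 3 lists, and above PGK1 alone, with 993 tags, in S12.

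**Figure D2:**
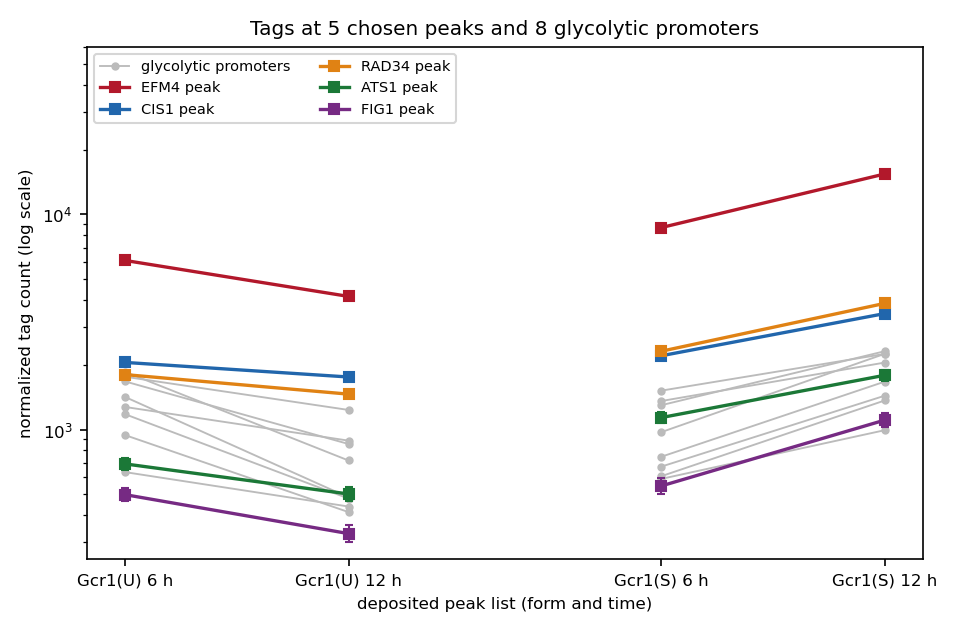
The normalized tag count on a log axis is plotted for the 4 lists, with lines joining 6 h and 12 h of the same form, coloured squares for the 5 chosen peaks with 95% counting intervals and grey circles for the 8 glycolytic promoters. EFM4 is the highest in each list, and all 13 lines slope down in Gcr1(U) and up in Gcr1(S).

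At 6 h the comparison of forms asks whether tags at these sites differ between Gcr1(U) and Gcr1(S) in exponential growth. All 5 sites had more tags in Gcr1(S), as did 111 of the 162 peaks, whereas 7 of the 8 glycolytic promoters had fewer. The ratio of Gcr1(S) to Gcr1(U) was 1.64 at ATS1 (1.51 to 1.79), 1.42 at EFM4 (1.38 to 1.46), 1.28 at RAD34 (1.22 to 1.36), 1.10 at FIG1 (0.985 to 1.23) and 1.07 at CIS1 (1.02 to 1.13). The interval at FIG1 included 1. The site median was 0.36 on the log2 scale, against -0.50 for the glycolytic promoters and 0.36 for all 162 peaks. Only ATS1 of the 5 was higher by 1.5-fold or more, a size that 12.3% of the 162 peaks reached in this direction, and none was lower by as much, against 16.0% of the 162 and 4 of 8 glycolytic promoters.

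Of the 162 peaks 81 lie at tRNA genes, and they weigh heavily in the common shift between lists. The shift, taken as the median log2 ratio of all 162 peaks, was 0.36 for the forms at 6 h, -0.60 for the forms at 12 h, 0.12 for the times in Gcr1(U) and -0.71 for the times in Gcr1(S). Relative to it the 6 h log2 ratios were 0.36 at ATS1, 0.15 at EFM4 and 0.00 at RAD34, and turned to -0.25 at CIS1 and -0.22 at FIG1. On the same scale all 8 glycolytic promoters were negative, from -0.27 at GPM1 to -1.43 at FBA1.

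At 12 h the same comparison asks how the forms differ at the diauxic shift. All 5 sites had more tags in Gcr1(S), by larger ratios than at 6 h. EFM4 had a ratio of 3.71 (3.59 to 3.83), ATS1 3.56 (3.23 to 3.92), FIG1 3.37 (2.98 to 3.80), RAD34 2.64 (2.49 to 2.81) and CIS1 1.97 (1.86 to 2.09). All 5 passed 1.5-fold, as did all 8 glycolytic promoters and 30.2% of the 162 peaks. In the other direction 50.6% of the 162 passed and none of these 13. Of the 162 peaks only 1 had a larger ratio than EFM4, a mitochondrial peak at 4.84. That peak and EFM4 were the 2 above ATS1. Higher by 1.5-fold or more were 24 of the 25 mitochondrial peaks. The genes had been picked for high tags, so these ranks are a description. The site median was 1.75 on the log2 scale (2.35 relative to the common shift), and the median ratio was 3.37, against 2.83 for the glycolytic promoters, which ran from 1.82 to 3.50.

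The ratio at EFM4 depends on which deposited measure is read. The peak caller's score, divided by the same depth, gave a log2 ratio of 1.20 at EFM4 at 12 h in place of 1.89. Fold over local background gave 0.91. RAD34 had 1.40 by tags, 1.30 by score and 1.06 by fold over local background. The direction was the same by all 3 measures at both sites. By score the site median was below the glycolytic one, by a difference of -0.20 in place of 0.25, and by fold over local background the difference was -0.040. Without EFM4 it was 0.076.

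For Gcr1(U) the question is whether tags at the sites differ between exponential growth and the diauxic shift. All 5 had fewer tags at 12 h, but by less than most glycolytic promoters. The ratio of 12 h to 6 h was 0.856 at CIS1 (0.811 to 0.902), 0.811 at RAD34 (0.766 to 0.860), 0.725 at ATS1 (0.659 to 0.799), 0.681 at EFM4 (0.659 to 0.703) and 0.659 at FIG1 (0.586 to 0.742). Only FIG1 was lower by 1.5-fold or more, against 5 of 8 glycolytic promoters and 21.0% of the 162 peaks. None of the 5 was higher by 1.5-fold, as 2.47% of the 162 were. The site median was -0.46 on the log2 scale, against -1.08 for the glycolytic promoters and 0.12 for all 162 peaks. The ranges met at the edge, since CDC19, GPM1 and PGK1, with ratios of 0.701, 0.697 and 0.692, lay above EFM4 and FIG1. By fold over local background the median of the 5 sites was 0.10 on the log2 scale, the opposite sign.

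Within Gcr1(S), all 5 sites had more tags at 12 h than at 6 h. FIG1 had a ratio of 2.02 (1.81 to 2.26), EFM4 1.77 (1.72 to 1.83), RAD34 1.67 (1.58 to 1.77), ATS1 1.57 (1.45 to 1.71) and CIS1 1.57 (1.48 to 1.67). All 5 passed 1.5-fold, as did 7 of 8 glycolytic promoters and 14.2% of the 162 peaks. In the other direction 51.9% of the 162 passed and none of these 13. The median was 0.74 on the log2 scale, against 0.96 for the glycolytic promoters and -0.71 for all 162. At TDH3, ENO2, FBA1 and PFK2 the ratios, from 2.14 to 2.31, exceeded those of all 5 sites. Per bp of window, which is narrowest in S12, the site median was 1.32 in place of 0.74. By fold over local background the log2 ratio turned negative at EFM4 (-1.47) and RAD34 (-0.29).

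**Figure D3:**
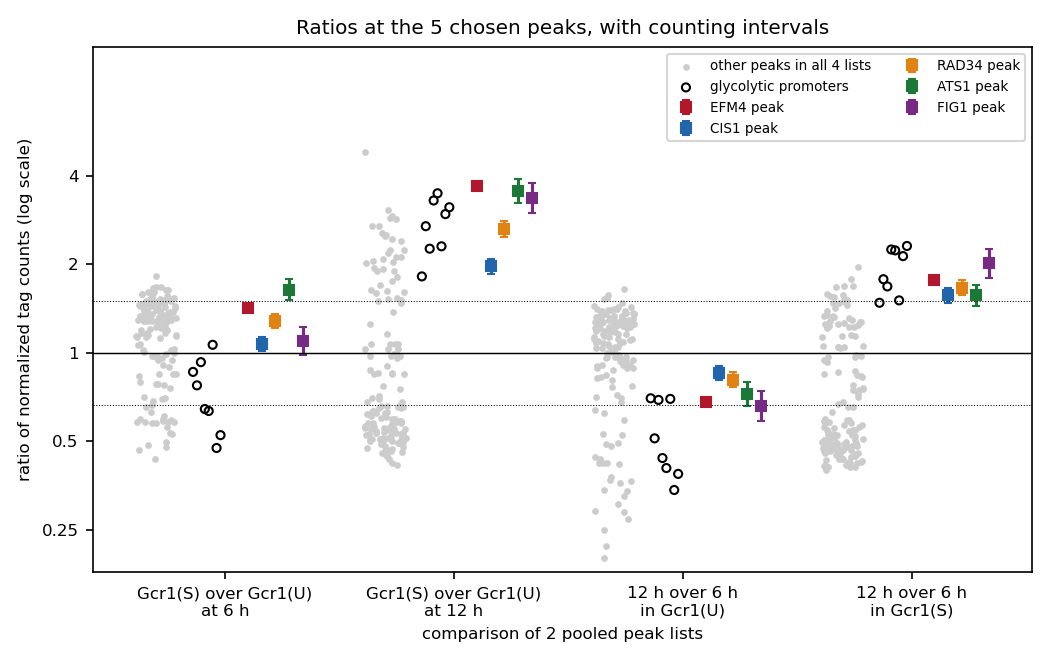
Ratios of normalized tag counts on a log axis are plotted for 4 comparisons of pooled lists, with coloured squares and 95% counting intervals for the 5 chosen peaks, open circles for the 8 glycolytic promoters and grey points for the other peaks in all 4 lists. Dotted lines mark 1.5-fold. For the forms at 6 h the 5 sites lie above 1, as do 111 of the 162 peaks, where most glycolytic promoters lie below it. At 12 h CIS1, RAD34 and FIG1 lie among the glycolytic promoters and EFM4 and ATS1 just above the highest of them, ENO2.

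The difference between times had opposite signs in the 2 forms at every site. The ratio of 12 h to 6 h was below 1 in Gcr1(U) and above 1 in Gcr1(S) at all 5 sites. The same held at all 8 glycolytic promoters, all 25 mitochondrial peaks and 34.0% of the 162 peaks. It held at 0 of the 81 tRNA gene peaks. The ratio of 12 h to 6 h in Gcr1(S) divided by that in Gcr1(U) was 3.07 at FIG1 (2.61 to 3.61), 2.61 at EFM4 (2.50 to 2.72), 2.17 at ATS1 (1.91 to 2.46), 2.06 at RAD34 (1.90 to 2.23) and 1.84 at CIS1 (1.70 to 1.99). These intervals are normal approximations on the log scale. The median of the 5 was 2.17, against 4.23 for the glycolytic promoters, which ran from 2.11 at CDC19 to 6.25 at FBA1, and 0.563 for all 162 peaks. CDC19, GPM1 and PGK1 lay within the range of the 5 sites, and PGI1, TDH3, ENO2, PFK2 and FBA1 above all of them.

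The genes had been picked for high tag counts and the sites then chosen by position. The other measures in the lists did not choose the sites, but not all of them are independent of the tags. The focus ratio is the share of a peak's tags that lie where the peak caller places them for a single sharply bound point. CIS1 had the highest focus ratio of the 5 in each list, from 0.796 to 0.822. EFM4 had 0.748 to 0.763 and RAD34 0.721 to 0.752. ATS1 had 0.644 in U6, 0.647 in U12, 0.692 in S6 and 0.728 in S12, and FIG1 had 0.646, 0.631, 0.677 and 0.748 in that order. The median of the 5 lay below that of the glycolytic promoters in each list, with 0.721 against 0.816 in U6, 0.724 against 0.759 in U12, 0.741 against 0.801 in S6 and 0.752 against 0.840 in S12. Against the 28 other nuclear peaks away from tRNA genes, chromosome ends and glycolytic promoters the same medians were higher, by 0.034 in S12 to 0.070 in U12.

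The focus ratio at EFM4 kept within a range of 0.015 over the 4 lists, although its tags differed 3.71 times between the forms at 12 h. CIS1 and RAD34 ranged over 0.026 and 0.031, but ATS1 and FIG1 over 0.084 and 0.117. Derived tags ran from 5894 to 9331 at EFM4, from 712 to 1221 at ATS1 and from 466 to 748 at FIG1. A share of fewer tags is less exact, and the part of tag number in these ranges was not tested. The glycolytic promoters had ranges from 0.032 at CDC19 to 0.144 at ENO2, which take in those of ATS1 and FIG1. TDH3, for example, had 0.766 with 942 tags in U6 and 0.644 with 413 in U12.

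By clonal fold change beside the glycolytic promoter nearest in tags, the 5 sites fell into 2 sets, drawn after the values were seen. Clonal fold change is the peak caller's measure of tags against the distinct positions they occupy, but the sources used here do not give its formula. Across the 162 peaks it was lower where tags were higher, with Spearman coefficients from -0.84 to -0.92 over the 4 lists, as a description over peaks that share a library. CIS1 and FIG1 were in no list higher than the glycolytic promoter nearest in tags. Only 1 or 2 peaks of a list had as many tags as CIS1, too few to place it on the trend by them. CIS1 had 0.12 in U6 and U12, 0.11 in S6 and 0.10 in S12, below all 8 glycolytic promoters in each list. FIG1 had 0.29 in U6, 0.38 in U12, 0.31 in S6 and 0.21 in S12. Of the 36 peaks with as many tags as FIG1 in U6, 15 had a clonal value as high. The same count was 84 of 118 in U12, 28 of 41 in S6 and 7 of 13 in S12.

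EFM4, RAD34 and ATS1, the 3 sites inside coding sequence, had higher clonal values in each list than the glycolytic promoter nearest in tags. A link to coding position was not tested. RAD34 had a clonal fold change of 0.38 in U6 with 1801 tags, where CDC19 had 0.13 with 1760.0 tags. Its other values were 0.42 in U12 and 0.36 in S6 and S12. EFM4 had 0.37 in U6, 0.35 in U12, 0.30 in S6 and 0.33 in S12. With more tags than any other peak, EFM4 had a clonal value above all 8 glycolytic promoters in U6 and S12 and within their range in U12 and S6. No other peak had as many tags as EFM4, so it could not be placed on the trend. Between 1 and 5 peaks of a list had as many tags as RAD34, too few to place it by them. ATS1 had 0.51 in U6, 0.52 in U12, 0.44 in S6 and 0.51 in S12, higher than every glycolytic promoter in each list. In S12 ATS1 had 1788 tags with 0.51, and ENO2 1670.3 tags with 0.22. Among the 22 peaks with as many tags as ATS1 in U6, only the one at YGL081W and MIY3 had a clonal value as high.

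**Figure D4:**
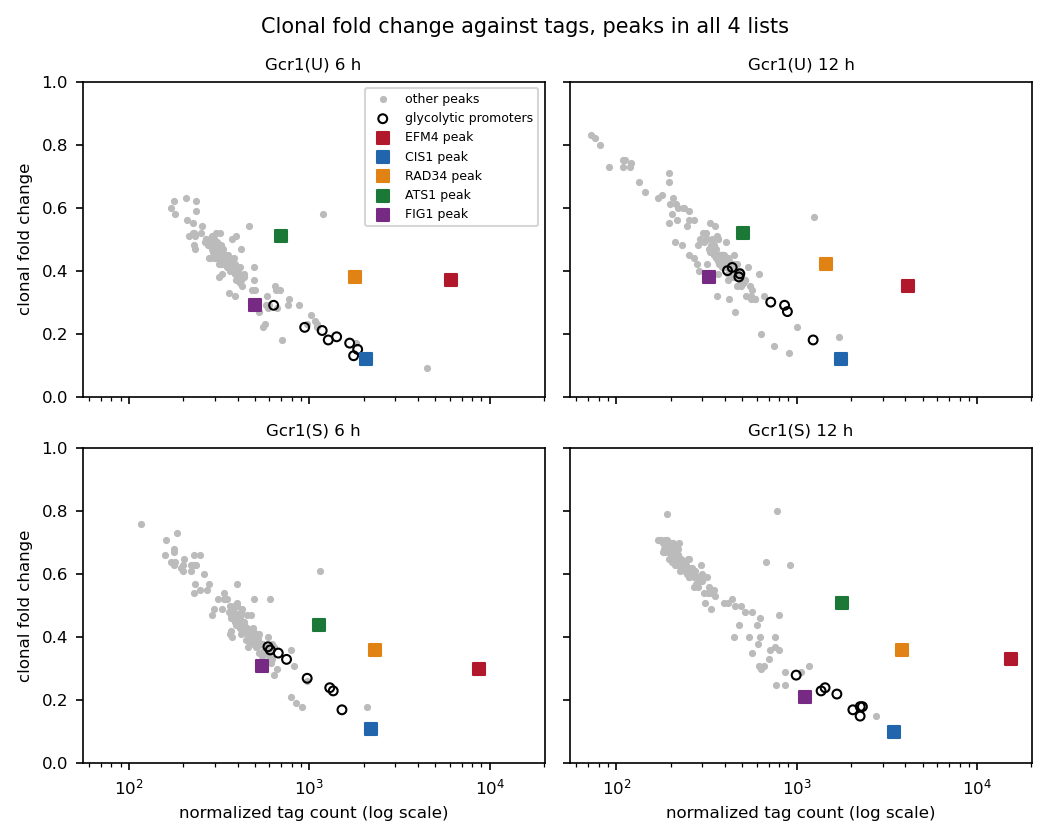
Clonal fold change is plotted against normalized tag count (log axis) for the 162 peaks in each of the 4 lists, with coloured squares for the 5 chosen peaks, open circles for glycolytic promoters and grey points for the others. RAD34 and ATS1 lie above the glycolytic promoters nearest to them in tags. EFM4 does too, but no other peak has as many tags.

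Fold over local background compares a window with its surroundings. CIS1 had 6.89 in U6, 8.36 in U12, 14.6 in S6 and 16.0 in S12. RAD34 had 6.11, 6.55, 16.7 and 13.7 in the same order, and EFM4 7.98, 8.68, 45.3 and 16.3. The highest glycolytic value was 6.91 in U6, 5.78 in U12, 6.20 in S6 and 9.68 in S12. EFM4 exceeded it in every list, and CIS1 and RAD34 in every list but U6. ATS1 had 3.10, 2.54, 6.72 and 8.95 in the same order, and FIG1 had 2.58, 2.36, 4.09 and 7.49.

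The surroundings of EFM4 differed between lists. If the fold is a plain quotient, the tags divided by it give a surrounding level of 766 tags per window in U6, 479 in U12, 192 in S6 and 945 in S12. In U12 and S12 it was the highest of the 162 peaks. At the glycolytic promoters the level stayed between 152 and 327 in all 4 lists. At CIS1 it was 298, 210, 151 and 216, and at RAD34 295, 223, 138 and 282, in the same order.

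The peak score followed the tags at nearly all peaks, and lay well below them at EFM4 and RAD34 in S12. The score lay within 5% of the derived tags at 292 of 299 peaks of U6, 293 of 299 of U12, 231 of 233 of S6 and 230 of 233 of S12. At EFM4 the score per derived tag was 0.992 in U6, 1.01 in U12, 0.962 in S6 and 0.623 in S12. At RAD34 it was 0.936 in S12. The EFM4 values of S6 and S12 and the RAD34 value of S12 were the only 3 under 0.97 in any list. CIS1, with 3460.1 tags in S12, had 1.03 there, and 1.09 in U6, 1.05 in U12 and 1.02 in S6.

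**Figure D5:**
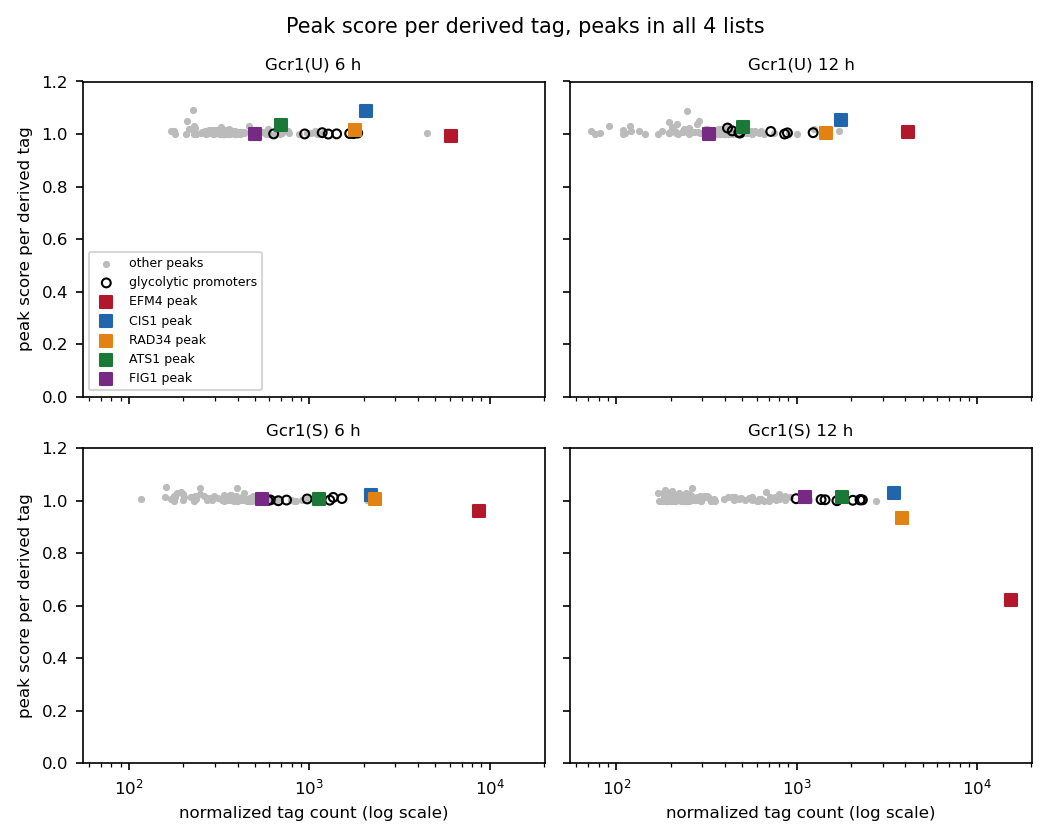
The peak score per derived tag is plotted against normalized tag count (log axis) for the 162 peaks in each list, with coloured squares for the 5 chosen peaks, open circles for glycolytic promoters and grey points for the others. Nearly all points lie at 1, and EFM4 in S12 lies at 0.623.

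The profile of tags over the 4 lists can be compared between peaks without regard to their level, as the distance between log2 values after each peak's own mean is removed. Over the 162 peaks and these 4 values, the peak nearest to EFM4 was ATS1, at a distance of 0.16, and the next was FIG1, at 0.29. The nearest to CIS1 was at SNF1, the gene of the glucose-responsive protein kinase, at 0.08, with 316 tags in U6, 288 in U12, 362 in S6 and 562 in S12. The nearest to RAD34 was at LCB2, a sphingolipid synthesis gene, at 0.10, followed by GIC2, a Cdc42 effector, at 0.11. The nearest to FIG1 was at AAH1, adenine deaminase, at 0.17. For none of the 5 was a glycolytic promoter among the 2 nearest. Only 8 of the 162 peaks are glycolytic promoters, so this is no result about the sites.

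Other genes that act with the 8 were looked up in the same lists. In all, 2.20% of 6002 nuclear protein-coding genes had a peak in promoter range in all 4 lists. Without the chosen genes themselves, 0 of 3 other organelle fission genes, 0 of 8 other genes of translation factor methylation and its substrate, 0 of 9 other Ccr4-Not genes, 0 of 9 other Snf2-family remodellers, 0 of 9 other Elongator and diphthamide genes, 0 of 9 other mating genes and 0 of 11 other drug response genes did. Among 11 other genes of nucleotide excision repair, 1 did. This was RAD3, a helicase of repair and transcription, with 371 tags in U6, 331 in U12, 474 in S6 and 798 in S12. The same peak is also assigned to ADK2. RAD7, a repair gene, and NOT5, a Ccr4-Not subunit, had a peak in Gcr1(S) alone, and both peaks lay within 500 bp of a tRNA gene. At so low a genome-wide share, these counts are no result about the genes. Of the glycolysis genes, 8 of 17 had a peak in all 4 lists.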

How the data were processed

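The authors deposited 4 peak lists, and per the file headers these have the column names of HOMER's findPeaks. The submitters' processing notes name the build sacCer3 and, with no roles, BWA 0.7.15, Picard 2.92, FastQC 0.10.1, bcl2fastq 1.8.2, bedtools and HOMER. The sources used here do not give how the 2 replicates of a group were combined. Per the file headers each peak has a normalized tag count (a signal), a focus ratio (a fraction), a score, a fold change against the local region, a p-value against it and a clonal fold change. The deposited p-value was not used.

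Tags were derived from the even spacing of the normalized values, with 1 step taken as 0.5 tags. Between 98.3% and 99.7% of values lay within 0.05 of a step. Intervals of ratios are exact binomial 95% intervals on these tags and those of single values exact Poisson ones. PCR reads are not independent molecules. The step and the intervals of ratios were checked on simulated lists without PCR duplicates, and the intervals of single values were not. The simulated counts were drawn in steps of 0.5 tags, so they spread less than the intervals assume. That check therefore cannot decide whether the intervals are wide enough for these data. Lists were matched by overlap of at least 1 bp, and gene positions were read from RefSeq (assembly R64). In the gene lists EFM7 and DPH3 were found there under NNT1 and KTI11. Called means 1.5-fold or more apart. Python 3.11.15, pandas 2.3.3, numpy 2.4.6 and scipy 1.17.1 were used. Alternatives were tags per bp, fold over local background, the score, centring, other summaries and a stricter overlap. Sites, comparators and gene lists were chosen with earlier results of these data known. Genes named are those at the 5 sites, the glycolytic promoters, the highest peaks, the nearest profiles and list members with a peak.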

Additional observations from a re-analysis of the deposited data

Results flagged for a closer look

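At all 5 sites the tags were lower at 12 h than at 6 h in Gcr1(U) and higher at 12 h in Gcr1(S). The same held at all 8 glycolytic promoters, all 25 mitochondrial peaks and 34.0% of the 162 peaks. It therefore does not set the 5 sites apart. The ratio of 12 h to 6 h in Gcr1(S) divided by that in Gcr1(U) was 2.61 at EFM4, 1.84 at CIS1, 2.06 at RAD34, 2.17 at ATS1 and 3.07 at FIG1. Its median was 2.17 over the 5 sites and 4.23 over the glycolytic promoters. With 1 pooled list per form and time the difference between the forms was not tested.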

How the results depend on the processing

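All values in this paragraph are log2 unless stated. For the forms at 6 h the median of the 5 sites was 0.46 by tags per bp, 1.12 by fold over local background, 0.25 without EFM4 and 0.0043 centred on all peaks, in place of 0.36. Its difference from the glycolytic median was 1.52 by fold over local background, 0.75 without EFM4 and 1.00 with ADH1 among the comparators, in place of 0.86. For the forms at 12 h the median was 2.31 by tags per bp, 1.06 by fold over local background, 1.30 by score, 2.35 centred on all peaks and 1.57 as a mean, in place of 1.75. The difference was -0.040 by fold over local background, -0.20 by score, 0.076 without EFM4 and 0.14 as a mean, in place of 0.25. In Gcr1(U) the median of 12 h over 6 h was 0.10 by fold over local background and -0.29 centred on nuclear peaks away from tRNA genes, in place of -0.46, and the difference was 0.79 by the former, in place of 0.61. In Gcr1(S) the median was 1.32 by tags per bp, 0.13 by fold over local background, 1.45 centred on all peaks and 0.61 on nuclear ones, in place of 0.74. The difference was -0.66 by fold over local background and -0.094 with ADH1, in place of -0.23. By fold over local background EFM4 (-1.47) and RAD34 (-0.29) reversed in Gcr1(S). The cause of these moves was not tested.

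At 2-fold, 6 of 46 peaks passed for the forms at 6 h, 51 of 131 at 12 h, and 57 of 107 for the times in Gcr1(S). Against the 28 other nuclear peaks away from tRNA genes, chromosome ends and glycolytic promoters, the focus ratio of the sites differed by 0.0565 in U6 and in S6, 0.0695 in U12 and 0.0335 in S12, and the clonal fold change by -0.015 in U6, -0.16 in S6 and -0.185 in S12. The score and the single-peak alternatives were chosen after seeing the data. No paired analysis was possible because each group has 1 pooled list whose columns carry no replicate, so leaving out a replicate could not be run either. Sequence motifs were not analysed here. Matching lists by a 50% overlap gave the same 4 medians and 4 differences.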

Other observations

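The peak at YGL081W, assigned to MIY3 as well and chosen after its values were seen, also had a high clonal fold change for its tags. It had 1197 tags with a clonal fold change of 0.58 in U6, 1249 with 0.57 in U12, 1147 with 0.61 in S6 and 779 with 0.80 in S12. Between 4 (U12) and 21 (S12) other peaks of the 162 had as many tags, and 0 of them had a clonal value as high. Its tags went the other way over time, with more in U12 than in U6 and fewer in S12 than in S6.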
